A study of Mus musculus with 9 samples.

Results

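The small leucine-rich proteoglycans (SLRPs) are a family of secreted matrix proteins, and 10 of their genes were followed here in primary mouse embryo fibroblasts (MEFs): Prelp, Fmod, Lum, Omd, Ogn, Aspn, Bgn, Dcn, Kera and Epyc. The members are all probe-sets, the groups of short probes that measure a transcript, whose gene symbol is one of these, which gave 10 of 18194 named genes and 21 of the 45101 probe-sets on the arrays. Prelp was chosen by its difference between wild type MEFs at passage 5 and passage 3, and the other genes were added as its family. In that comparison all members are therefore described by their values with no p, and their count of calls is a description only. The arrays cover Tgif1 -/- (Tgif1 null) MEFs at passage 3 (null), wild type MEFs at passage 5 (P5) and wild type MEFs at passage 3 (P3), with 3 arrays for each group, and the study's question was whether null cells at P3 look like wild type cells at the later passage. All cultures came from day 13.5 embryos of a mixed C57BL/6J and 129Sv/J background, were passaged on a 3T3 schedule and were left untreated. The 3 arrays of a group came from independent cultures, and the labels do not say whether P5 and P3 cultures came from the same embryos. The null lacks Tgif1 in every cell from the start of development, and MEFs are a mixture of the mesenchymal cells of an embryo rather than a single cell type.

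SLRP proteins share a core of leucine-rich repeats, to which cells attach chondroitin, dermatan or keratan sulfate chains in most members. They lie on collagen fibrils, where they control how fibrils form and how thick they grow, and several of them, such as decorin, biglycan, fibromodulin and asporin, also bind the growth factor TGFβ. Fibroblasts are a main source of the family in connective tissue. Tgif1 is a transcriptional corepressor that limits the genes TGFβ activates through Smad proteins, and it binds DNA at sites with the core TGTCA.

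Signals are log2 values in which an increase of 1 is a doubling, made with GCRMA, which corrects for background and brings the arrays to the same distribution. The lowest value on every array was 2.23, the array medians lay between 2.48 and 2.50, and 18127 to 18258 probe-sets per array were above 4. The correlation between arrays of a group was between 0.996 and 0.999. Tgif1 itself read 2.48, 3.21 and 2.50 in the null, 10.06, 10.07 and 10.18 in P5, and 9.82, 9.95 and 9.72 in P3, as the labels say, although where its probes lie relative to the deletion was not checked. All 12 measured fibroblast markers, such as Col1a1, Vim and Thy1, were above 4 on every array, while the endothelial genes Pecam1 and Tie1, the epithelial gene Cdh1 and the bone genes Alpl and Dmp1 were at or near the lowest value. Signal from other cell types was present too: 3 of 9 epithelial and mesothelial markers (Krt18, Krt19 and Msln) were above 4 on every array, and 2 of 7 endothelial markers (Kdr and Emcn) on every null and P3 array. Of 13 skeletal muscle markers, 11 were above 4 on all null arrays, 8 on all P3 arrays and 4 on all P5 arrays. For 12 macrophage markers these counts were 7, 5 and 5, and for 10 cartilage markers 3, 4 and 3. For the 5 bone markers measured, of 8 listed, they were 0, 0 and 0. Among these, Ibsp read 4.07 on null replicate 1 and 2.81 on P3 replicate 3.

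The sequence around the start of transcription is shown for 4 of the members in which every P5 array was highest, Prelp, Fmod, Omd and Ogn. Aspn and Bgn had the same order, and their windows, not shown, held no TGTCA on either strand. RefSeq start site windows of assembly GRCm38.p6, from 250 bases before to 50 after the start, were found for 8 of the 10 members, and each is printed 5′ to 3′ on the strand of its gene with TGTCA, or its reverse complement TGACA, in capitals. Prelp lies at chr1:133921352-133921651 on the minus strand, Fmod at chr1:134037004-134037303, Omd at chr13:49582212-49582511 and Ogn at chr13:49607765-49608064, all on the plus strand.
Prelp: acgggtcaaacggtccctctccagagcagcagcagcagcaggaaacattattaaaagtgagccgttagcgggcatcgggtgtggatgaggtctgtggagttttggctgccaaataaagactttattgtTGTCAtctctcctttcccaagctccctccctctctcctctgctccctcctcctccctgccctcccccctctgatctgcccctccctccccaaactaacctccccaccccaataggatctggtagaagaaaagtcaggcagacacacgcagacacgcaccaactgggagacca
Fmod: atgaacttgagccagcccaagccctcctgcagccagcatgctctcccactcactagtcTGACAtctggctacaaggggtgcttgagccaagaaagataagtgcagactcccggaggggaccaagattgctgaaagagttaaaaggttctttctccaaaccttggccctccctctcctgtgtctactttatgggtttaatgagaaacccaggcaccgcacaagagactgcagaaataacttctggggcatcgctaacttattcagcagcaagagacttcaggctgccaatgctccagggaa
Omd: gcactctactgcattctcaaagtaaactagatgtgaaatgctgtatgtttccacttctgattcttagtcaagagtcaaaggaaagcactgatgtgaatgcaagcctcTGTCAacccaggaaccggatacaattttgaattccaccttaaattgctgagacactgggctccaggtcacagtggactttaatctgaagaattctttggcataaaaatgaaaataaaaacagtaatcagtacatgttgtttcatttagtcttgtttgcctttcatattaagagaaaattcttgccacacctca
Ogn: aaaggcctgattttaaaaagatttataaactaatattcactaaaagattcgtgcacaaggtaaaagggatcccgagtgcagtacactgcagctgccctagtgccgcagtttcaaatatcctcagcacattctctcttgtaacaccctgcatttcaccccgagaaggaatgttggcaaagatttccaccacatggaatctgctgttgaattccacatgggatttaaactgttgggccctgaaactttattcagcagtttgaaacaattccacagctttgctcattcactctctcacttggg
Counted from the start, with negative positions before it, the match began at -122 in Prelp, -192 in Fmod and -143 in Omd, and the Ogn window held none. Over all matched members, 6 of 9 windows, belonging to Prelp, Fmod, Omd, Kera and Epyc, held the letters on either strand, against 45.4% of all 32851 windows of that length. Of these genes, Kera and Epyc were at background on the arrays. The letters TATAAA, also on either strand, were in the windows of Aspn and Ogn, against 13.6% of all windows. These matches describe the letters only.

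Of the 10 genes, 8 were measured above background, and Kera and Epyc were not. Kera, which encodes the corneal protein keratocan, read 2.23 on all 9 arrays. Epyc, a gene of growth plate cartilage, read 2.26 on P5 replicate 1 and 2.23 on the other arrays. Among single probe-sets, 17 of 21 had a signal above 4 on at least 3 arrays, the exceptions being those of Kera and Epyc, the second Dcn probe-set, at 2.23 throughout, and the second Prelp probe-set. A gene is described below by its brightest probe-set unless another is named.

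Prelp encodes a protein with an end rich in proline and arginine that ties basement membranes to the collagen around them. It read 2.53, 3.01 and 2.54 in the null, 7.63, 7.97 and 7.45 in P5 and 2.96, 3.07 and 3.02 in P3. All P5 arrays were thus far above the other 6, which all lay under 4, near the background. P5 was above P3 by 4.67 (SE 0.18) on the log2 scale, or 25.4-fold, and the null was below P5 by 4.99 (SE 0.18), or 31.8-fold, values that are descriptions because Prelp was chosen for them. Both differences came to 3.69 in size when all signals under 4 were set to 4. Between the null and P3 the difference was -0.32 (SE 0.18, adjusted p = 0.734 by limma), with a 95% interval of -0.75 to 0.11. The 3 null values overlapped those of P3. The choice of Prelp did not use the null arrays but did use the P3 arrays, so this comparison is not independent of it.

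The second Prelp probe-set, 1416322_at, had the same order at a much lower signal. It averaged 2.42 ± 0.01 in the null, 3.16 ± 0.18 in P5 and 2.43 ± 0.00 in P3 (SD, n = 3 each), so its P5 to P3 difference was 0.73 (SE 0.08). With the mean of both probe-sets the P5 to P3 difference of Prelp was 2.70. The name of the brighter one, 1416321_s_at, marks it as matching more than 1 transcript, by the array maker's convention.

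**Figure D1:**
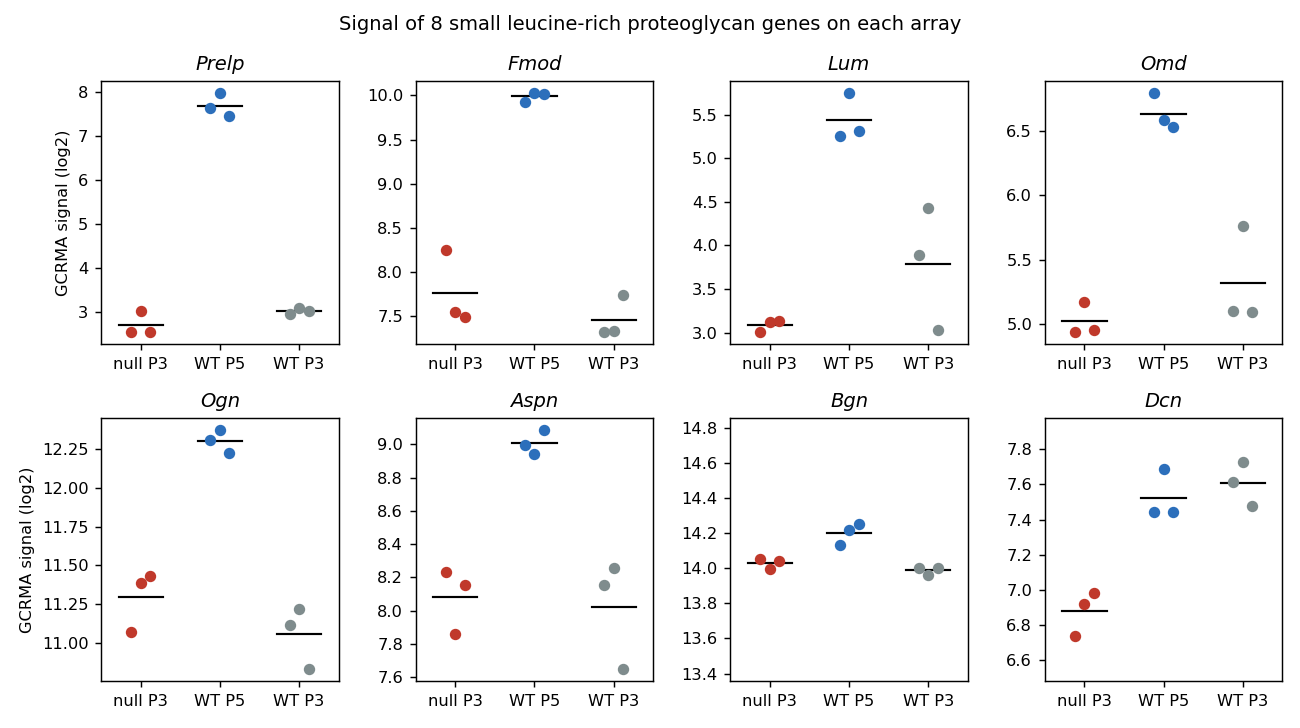
GCRMA log2 signal of the brightest probe-set of 8 SLRP genes on each array, with Tgif1 null P3 in red, wild type P5 in blue and wild type P3 in grey, points for single arrays and bars for the mean of 3; the vertical scale differs between panels. In Prelp, Fmod, Lum, Omd, Ogn, Aspn and Bgn every P5 array lies above the 6 others, and in Dcn the 3 null arrays lie below all wild type arrays.

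Fmod encodes fibromodulin, a keratan sulfate proteoglycan that sets collagen fibril thickness in tendon and other dense tissue. Its brightest probe-set read 8.26, 7.55 and 7.49 in the null, 9.93, 10.03 and 10.02 in P5 and 7.32, 7.33 and 7.74 in P3. The null and P3 values overlapped, and the P5 values stood apart from both. P5 was above P3 by 2.53 (SE 0.22), the null was below P5 by 2.23 (adjusted p = 0.00327), and the null differed from P3 by 0.30 (SE 0.22, adjusted p = 0.768, 95% interval -0.24 to 0.85). Fmod is measured by 6 probe-sets, the most of any member, and all showed P5 highest, with P5 to P3 differences between 1.66 and 2.83. The smallest of these came from 1438966_x_at, which gave the same 6.22 on 5 of the 6 null and P3 arrays. Names ending in _x_at, as 5 of the 6 do, mark probes that may also match other transcripts.

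Lum encodes lumican, which orders the collagen of cornea and skin. It read 3.00, 3.12 and 3.14 in the null, 5.26, 5.75 and 5.31 in P5 and 3.89, 4.43 and 3.03 in P3. The 3 null arrays and 2 of the 3 P3 arrays were under 4, and the P3 cultures spread over 1.40, the widest of any member in any group by its brightest probe-set. P5 was above P3 by 1.65 (SE 0.35). The null fell to 3.09 ± 0.07, against 5.44 ± 0.27 in P5 (SD, n = 3 each), a difference of -2.35 (adjusted p = 0.0124), or -1.44 (adjusted p = 0.00819) with signals under 4 set to 4, as all null arrays were under it. This call was lost without P5 replicate 2 (adjusted p = 0.0528). The null lay below P3 by 0.70 (SE 0.35), which did not pass the test (adjusted p = 0.644, 95% interval -1.54 to 0.14), and with the same floor that difference was -0.14.

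Omd, Ogn and Aspn are neighbours on chromosome 13. Omd encodes osteomodulin, a keratan sulfate proteoglycan of mineralized tissue, and read 4.94, 5.17 and 4.95 in the null, 6.79, 6.58 and 6.53 in P5 and 5.10, 5.76 and 5.10 in P3. Ogn encodes osteoglycin, also called mimecan, and read 11.07, 11.39 and 11.43 in the null, 12.31, 12.38 and 12.23 in P5 and 11.12, 11.22 and 10.83 in P3. Aspn encodes asporin, which carries a stretch of aspartate residues and no sugar chain of the proteoglycan type, and read 8.23, 7.86 and 8.15 in the null, 8.9965, 8.94 and 9.09 in P5 and 8.15, 8.26 and 7.65 in P3. In all of these genes the P5 arrays were the highest and the null and P3 arrays overlapped.

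P5 was above P3 by 1.31 (SE 0.20) for Omd, by 1.25 (SE 0.13) for Ogn and by 0.99 (SE 0.18) for Aspn. The null was below P5 by 1.61 for Omd (adjusted p = 0.00621), by 1.01 for Ogn (adjusted p = 0.00841) and by 0.93 for Aspn (adjusted p = 0.0304). The Aspn call was lost without any 1 null array, any 1 P5 array or P3 replicate 1 (adjusted p between 0.0592 and 0.102). Second probe-sets gave larger differences, with P5 over P3 at 1.99 for Ogn and 1.90 for Aspn, and the null below P5 by 1.64 for Ogn (adjusted p = 0.0127) and by 1.67 for Aspn (adjusted p = 0.0558). Against P3 the null differed by -0.30 for Omd (adjusted p = 0.768, 95% interval -0.77 to 0.17), 0.24 for Ogn (adjusted p = 0.735, 95% interval -0.08 to 0.56) and 0.06 for Aspn (adjusted p = 1, 95% interval -0.37 to 0.49).

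Bgn and Dcn encode biglycan and decorin, members that carry chondroitin or dermatan sulfate and are well known to bind TGFβ. Bgn, on the X chromosome, read 14.05, 14.00 and 14.04 in the null, 14.13, 14.22 and 14.25 in P5 and 14.00, 13.96 and 14.00 in P3. P5 was the highest group here too, but by only 0.21 over P3 (SE 0.03), or 1.16-fold. The null was below P5 by 0.17 (adjusted p = 0.0304), or 1.13-fold, and 0.04 from P3 (adjusted p = 0.768, 95% interval -0.04 to 0.12). The 3 Bgn probe-sets, all with P5 highest, ranged from 0.12 to 0.21 over P3. The call against P5 was lost without 7 of the 9 arrays, kept only without P5 replicate 1 or P3 replicate 2, and ranged from an adjusted p of 0.0585 to 0.114 where lost.

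**Figure D2:**
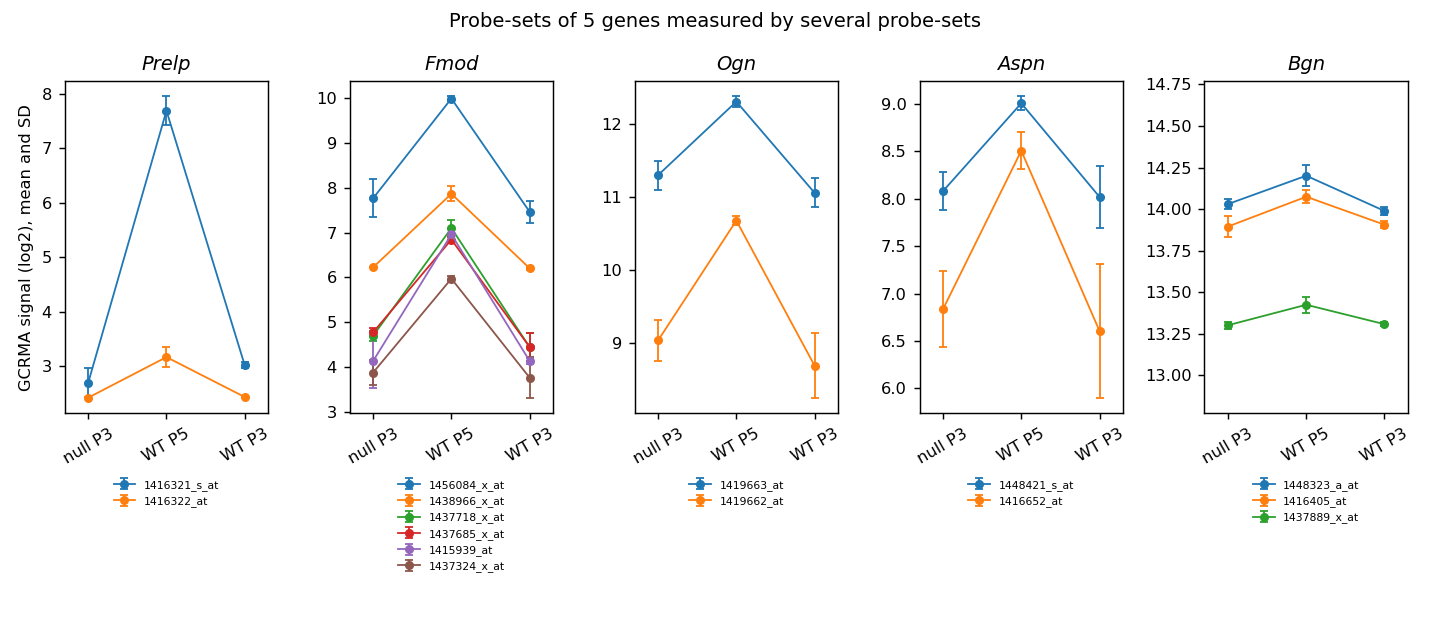
Mean GCRMA log2 signal of each probe-set of Prelp, Fmod, Ogn, Aspn and Bgn in Tgif1 null P3, wild type P5 and wild type P3 MEFs, with bars for the SD of 3 arrays; the vertical scale differs between panels. Every probe-set shown peaks in P5, and the P5 to P3 difference runs from 0.12 for a Bgn probe-set to 4.67 for the brighter Prelp probe-set.

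Dcn was the exception to this order. It read 6.73, 6.92 and 6.98 in the null, 7.44, 7.69 and 7.44 in P5 and 7.61, 7.73 and 7.48 in P3, so the null was lowest and the 2 wild type groups overlapped. The P5 to P3 difference was -0.08 (SE 0.10). Dcn fell to 6.88 ± 0.13 in the null, against 7.61 ± 0.12 in P3 (SD, n = 3 each), by 0.73 on the log2 scale (SE 0.10, adjusted p = 0.0317, 95% interval -0.98 to -0.48), or 1.66-fold, and it was 0.65 below P5 (adjusted p = 0.0173). The call against P3 is close to its threshold: it was lost on leaving out any 1 array other than P5 replicate 2 (adjusted p between 0.0632 and 0.121), while the difference stayed between -0.79 and -0.66, and the adjusted p was 0.21 with a trended robust prior for the spread and 0.122 with only the 6 arrays compared. The call against P5 was lost without null replicate 2 (adjusted p = 0.0545) or P5 replicate 2 (0.0503). The second Dcn probe-set, 1441506_at, was at the lowest value on all arrays and shows nothing, so a mean over both probe-sets gives -0.36.

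Between the null and P3, Dcn was the only member to pass the test, 1 of 21 probe-sets, where 1.59% of all probe-sets passed in either direction, 0.692% lower and 0.898% higher, and 1.55% of those with a signal above 4 on any array were lower. The median difference over the 10 genes was 0, as it was over all genes. The null and P3 values of 1 other member probe-set did not overlap, 1437685_x_at of Fmod, which was above P3 by 0.33 (adjusted p = 0.564); 5.57% of all probe-sets had the null above P3 with no overlap and 5.31% had it below. In the interval of every measured gene other than Dcn, a difference of 0 was included.

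Between the null and P5, 17 of 21 member probe-sets and 8 of 10 genes passed, all with the null lower, where 7.22% of all probe-sets passed, 3.65% were lower, and 8.18% were lower among those above 4 on any array. Of all genes, 11.4% passed and 5.33% were lower. The median over the genes was -0.97. The remaining 4 probe-sets were those of Kera and Epyc, the second of Dcn and the second of Aspn. In 18 probe-sets all null arrays were below all P5 arrays, as in 10.1% of all probe-sets. The count stood at 10 without P5 replicate 2 and between 12 and 16 without any other array. This comparison uses the P5 arrays in which Prelp drew attention, so the 2 Prelp probe-sets in the count are descriptions and the other calls are not independent of P5.

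Between P5 and P3, 17 member probe-sets in 7 of 10 genes were higher in P5 by the same threshold and none was lower, where 8.62% of all probe-sets passed, 4.29% were higher, and 9.74% were higher among those above 4 on any array. The count was 11 without P5 replicate 2 and between 12 and 15 without any other array. In 17 probe-sets the P5 arrays were all above the P3 arrays, as in 11.2% of all, and the median over the genes was 1.12 against 0 over all genes. As this comparison led to the choice of Prelp, nothing is read from these counts. With the study's own thresholds, a moderated F p under 0.0001 and a log2 difference of at least 0.5, 0 member probe-sets passed between the null and P3, 6 between the null and P5 and 6 between P5 and P3, against 0.568%, 1.46% and 1.49% of all probe-sets. By size, the differences ran from Prelp (4.67) through Fmod (2.53), Lum (1.65), Omd (1.31), Ogn (1.25) and Aspn (0.99) to Bgn (0.21) and Dcn (-0.08). The SEs run from 0.03 for Bgn to 0.35 for Lum, and the order itself was not tested, as it also depends on the probe-set that stands for each gene.

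**Figure D3:**
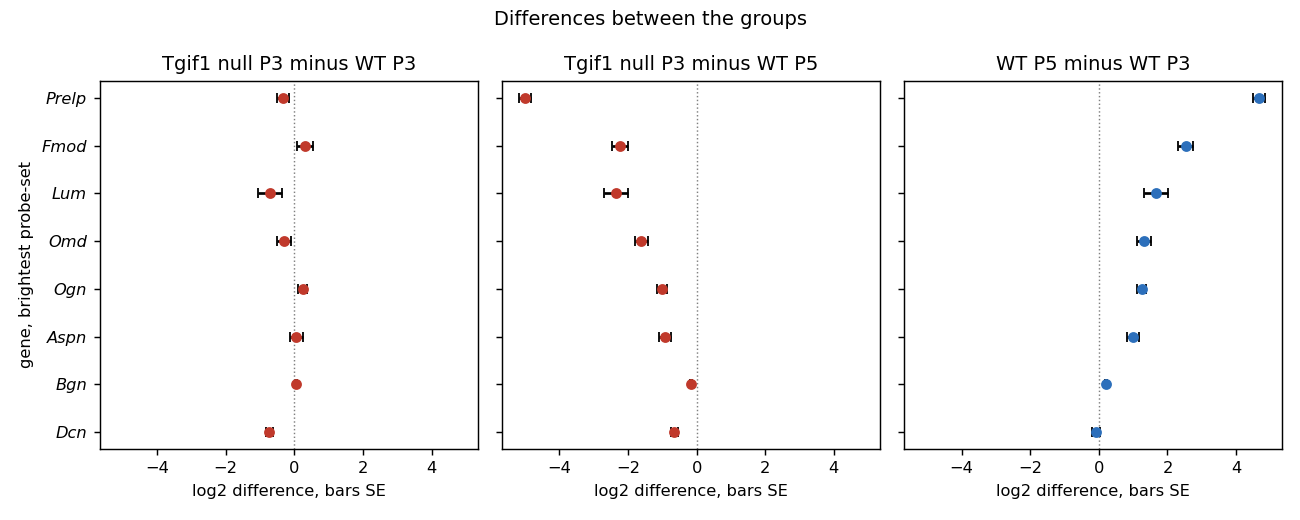
Log2 difference of the brightest probe-set of 8 SLRP genes for Tgif1 null P3 minus wild type P3, Tgif1 null P3 minus wild type P5 and wild type P5 minus wild type P3, with bars for the SE of limma's fit. In the first panel Dcn lies at -0.73 and Lum, with the widest bar, at -0.70, and the other 6 genes lie between -0.32 and 0.30, while those of the other 2 panels reach -4.99 and 4.67 for Prelp.

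Within groups, the P3 cultures differed from each other in the same order in several members. P3 replicate 2 was the highest P3 array for Prelp, Dcn, Lum, Ogn, Aspn and Omd, and replicate 3 the lowest for Dcn, Lum, Ogn, Aspn and Omd. The second Aspn probe-set had the widest gap of them, at 6.59, 7.32 and 5.90 in the 3 P3 cultures. Fmod ran the other way, with replicate 3 highest. In the null, replicate 1 was the lowest array for Prelp, Dcn, Lum, Ogn and Omd and the highest for Fmod, Aspn and Bgn.

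Most of the family lies in 3 clusters of neighbouring genes. In the annotated order, Optc, Prelp and Fmod follow each other on chromosome 1, Ecm2, Aspn, Omd and Ogn on chromosome 13, and Dcn, Lum, Kera and Epyc on chromosome 10, with 0 other coding genes in between. Direct neighbours did not share a pattern throughout. On chromosome 10, Dcn differed by -0.08 between P5 and P3 and Lum by 1.65, beside Kera and Epyc at background. On chromosome 13, Ecm2 was near the lowest value beside 3 genes with P5 highest. On chromosome 1, Optc, which encodes the eye proteoglycan opticin and is no member of the 10, read 5.44, 5.40 and 5.30 in the null, 6.37, 6.19 and 6.15 in P5 and 5.43, 5.43 and 5.58 in P3. Optc rose in P5 over P3 by 0.76 (SE 0.07, adjusted p = 0.00263) and was lower in the null than in P5 by 0.86 (adjusted p = 0.002), with -0.10 between the null and P3 (adjusted p = 0.768).

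**Figure D4:**
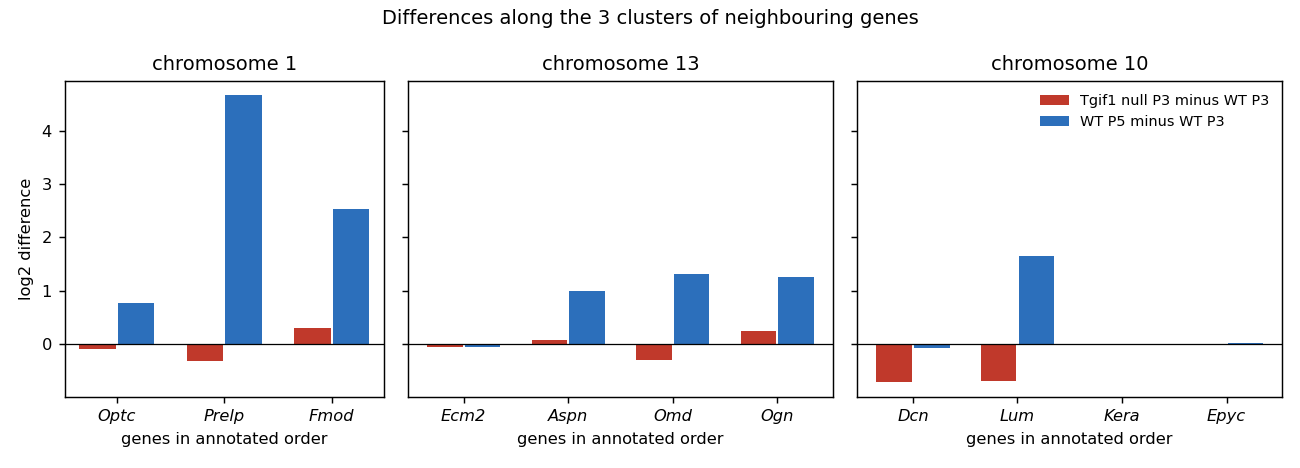
Log2 difference of the SLRP genes in their annotated order along 3 chromosomes, with red bars for Tgif1 null P3 minus wild type P3 and blue bars for wild type P5 minus wild type P3. Blue bars are tall in Optc, Prelp and Fmod and in Aspn, Omd and Ogn, whereas on chromosome 10 only Lum has one, and red bars go below -0.5 only in Dcn and Lum.

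Of the 5 further SLRP genes measured (Ecm2, Optc, Chad, Nyx and Podn; Tsku and Podnl1 were not matched), Optc was thus the only one above background. None of the 5 passed between the null and P3, and Optc alone passed between P5 and P3. As background for these and the lists below, 2.58% of all genes passed in the null against P3, 1.51% higher and 1.07% lower, and 13.2% in P5 against P3, 6.13% higher and 7.11% lower.

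The enzymes that build and sulfate the chains were examined next, 31 of 32 listed genes. Between P5 and P3, 7 rose and 1 fell, with a median of 0.25. Papss2, which makes the sulfate donor PAPS, rose most clearly: it read 8.68, 8.82 and 8.77 in the null, 9.23, 9.29 and 9.27 in P5 and 8.20, 8.14 and 8.06 in P3, a P5 to P3 difference of 1.13 (SE 0.05, adjusted p = 0.000215). Chsy3, a chondroitin synthase, rose by 1.17 (adjusted p = 0.00272), Chpf2, its polymerizing partner, by 0.39 (adjusted p = 0.0112, but 0.0502 without P5 replicate 2 and 0.145 with the trended robust prior), and B4galt4, a galactosyltransferase, by 0.70 (adjusted p = 0.00149). In the null against P3, 2 rose and 1 fell, with a median of 0.01. Papss2 rose here too, by 0.63 (SE 0.05, adjusted p = 0.0052, but 0.132 with that prior and 0.0573 with only the 6 arrays compared), and its null arrays lay between the P3 and the P5 arrays; both comparisons share the P3 arrays. The sulfotransferase Chst7 fell by 0.83 (adjusted p = 0.0341) and the galactosyltransferase B4galt1 rose by 0.30 (adjusted p = 0.0476). The Chst7 call was lost on leaving out any 1 array other than P3 replicate 2 (adjusted p 0.0758 to 0.127) and the B4galt1 call on leaving out any 1 other than P5 replicate 2 (0.0714 to 0.137).

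Fibrillar collagens and the proteins that assemble them are the partners of the family, and 27 of 28 were measured. The gene not matched was Loxl2, which the paper reports by qRT-PCR as rising with passage and with loss of Tgif1. Between P5 and P3, 8 of the 27 rose and 2 fell, with a median of 0.31. Comp, cartilage oligomeric matrix protein, rose by 1.80 (SE 0.19, adjusted p = 0.00362), reading 2.97, 2.83 and 2.97 in the null, 4.48, 5.12 and 4.68 in P5 and 3.10, 3.10 and 2.67 in P3, with both passage 3 groups under 4 and a difference of 0.76 (adjusted p = 0.0393) once signals under 4 are set to 4. The cross-linking enzymes Loxl3 and Loxl4 rose by 0.93 (adjusted p = 0.00123) and 0.61 (adjusted p = 0.00759, but 0.0657 with the trended robust prior), and Col12a1, a collagen of fibril surfaces, by 0.58 (adjusted p = 0.00585). In the null against P3, 1 gene of the list rose and none fell, with a median of 0.05. This was Pcolce2, an enhancer of procollagen cleavage, with 0.45 (adjusted p = 0.0369), lost on leaving out any 1 array other than null replicate 3 (adjusted p 0.0764 to 0.128).

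Of the other proteoglycans, 25 genes were measured. Between P5 and P3, 3 rose and 1 fell, with a median of 0.05. The syndecans Sdc4 and Sdc2 rose by 0.89 (adjusted p = 0.00716) and 0.73 (adjusted p = 0.0167), the hyaluronan receptor Cd44 rose by 0.31 (adjusted p = 0.0325), and the cartilage proteoglycan Acan fell by 2.05 (adjusted p = 0.042), with all P5 arrays under 4 and a difference of -0.66 once signals under 4 are set to 4. The Sdc2 call was lost without any 1 P5 array (adjusted p 0.0563 to 0.0658). The Cd44 call was lost without null replicate 3, any 1 P5 array, or P3 replicate 1 or 3 (0.057 to 0.108), and the Acan call on leaving out any 1 array other than null replicate 1 (0.0607 to 0.141). In the null against P3, 3 rose and none fell, with a median of 0.01. Prg4, the joint lubricant lubricin, read 8.72, 8.79 and 8.86 in the null, 7.17, 6.88 and 6.63 in P5 and 6.96, 7.07 and 7.38 in P3, and rose in the null over P3 by 1.66 (SE 0.16, adjusted p = 0.0113, but 0.0508 with the trended robust prior). Cspg4, known as NG2, rose by 0.64 (adjusted p = 0.0282, and 0.0551 to 0.111 on leaving out any 1 array other than P3 replicate 3) and Gpc3, a glypican, by 0.66 (adjusted p = 0.0417, and 0.0536 to 0.15 on leaving out any 1 other than P3 replicate 2).

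The genes whose 9 values followed those of Prelp most closely, among 2060 genes outside the lists that spanned at least 1 on the log2 scale, were Cbr2 (Pearson's r 0.997), Rarres1 (0.996), 3110039M20Rik (0.994), Elobl (0.994) and Mgmt (0.994). For Lum they were Emb (0.978), Dkk3 (0.978), Abat (0.975), Bnip3 (0.971) and Sspn (0.970). These values describe how the genes were found, and the 9 arrays are 3 P5 arrays set apart from 6 others, so that r for Prelp mostly follows that gap. Cbr2 is a carbonyl reductase best known from mouse lung, Mgmt repairs alkylated DNA and Rarres1 is induced by retinoids. Sspn, which encodes the muscle membrane protein sarcospan, read 6.41, 6.39 and 6.36 in the null, 8.02, 8.11 and 7.87 in P5 and 7.08, 7.29 and 6.85 in P3, with P3 replicate 3 the lowest P3 array as in Lum.

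Genes of other cell types differed between the same groups. As background for the counts below, 1.51% of all genes were called higher in the null than in P3. Between P5 and P3, 6.13% of all genes were higher in P5 and 7.11% lower. Between the null and P5, 11.4% of all genes passed, and 5.33% were lower in the null. The sum of the log2 signals of 13 skeletal muscle markers was 88.0 to 96.1 in the null, 47.8 to 49.5 in P5 and 65.9 to 68.3 in P3, although Myod1 was at the lowest value throughout. Of these, 10 were higher in the null than in P3, 11 higher in the null than in P5, and 7 lower in P5 than in P3. For 12 macrophage markers, with Aif1 and Itgam at the lowest value, the sum was 53.1 to 60.3 in the null, 43.7 to 44.1 in P5 and 44.5 to 46.8 in P3, and 2 were higher in the null than in P3 and 6 than in P5. For 12 fibroblast markers it was 150.4 to 152.1 in the null, 153.8 to 154.7 in P5 and 151.2 to 151.6 in P3, and 4 were lower in the null than in P5 and 3 higher in P5 than in P3. For 9 epithelial and mesothelial markers it was 40.9 to 42.0 in the null, 37.5 to 38.4 in P5 and 41.5 to 41.8 in P3. Most of that gap was Krt18, a keratin of simple epithelia, which read 8.83, 9.01 and 8.90 in the null, 6.13, 6.08 and 6.53 in P5 and 8.98, 9.01 and 8.73 in P3, fell in P5 against P3 by 2.66 (adjusted p = 0.000411) and was higher in the null than in P5 by 2.67 (adjusted p = 0.000475), while Msln was lower in the null than in P5 (adjusted p = 0.033). For 7 endothelial markers it was 21.1 to 22.1 in the null, 19.0 to 20.0 in P5 and 20.7 to 21.0 in P3, with 1 marker, Emcn, higher in the null than in P5. With these bulk arrays, fewer cells of a kind and less RNA per cell cannot be told apart, and the part of these cell types in the SLRP differences was not tested.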

How the data were processed

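RNA from 9 cultures was hybridized to Affymetrix MOE430_2.0 arrays. For each array the authors deposited log2 signals from GCRMA, which models background by probe sequence, normalizes all arrays jointly and condenses the probes of a probe-set into 1 value. Limma is also named in the submitters' processing notes, without a version in the sources used here. These log2 values were not processed further, and a table of mouse genes of GRCm38.p6 updated their symbols: 34958 probe-sets had a single symbol, 932 several and 9211 none here. A gene is represented by its probe-set with the highest mean among those with a single symbol. No detection calls were used, and signals under 4 are called near background. For 19725 probe-sets (43.7%) the 9 values spanned under 0.1. The number of arrays limits the precision.

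A model with a mean for each of the 3 groups was fitted over 9 arrays in limma 3.58.1 under R 4.3.3 (empirical Bayes at its defaults, 6 residual degrees of freedom), and Benjamini-Hochberg adjustment ran across the 45101 probe-sets, with calls at an adjusted p under 0.05. SEs and intervals come from this fit. With 3 against 3 arrays an exact permutation test cannot go below 0.1, so none was used. The fit was tested on simulated data with normal noise and changes added only to probe-sets with a mean above 4. That test does not cover changes in signals near background. The members and lists were chosen with earlier results of these data known. Named genes were all members, up to 4 called genes of each other list with the smallest p in the null to P3 and in the P5 to P3 comparison, and the 5 genes most like Prelp and Lum. Promoter windows came from RefSeq. Alternatives were a filter on signals above 4 on at least 3 arrays, a trended robust prior, quantile normalization, median centring and a floor of 4. Others were the replicate number as a block, only the 6 arrays compared, the mean of a gene's probe-sets, and each array left out. The last used the study's thresholds, under 0.0001 for p, here from a moderated F test, and at least 0.5 for the log2 difference.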

Additional observations from a re-analysis of the deposited data

How the results depend on the processing

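No called result changed direction under any alternative. Of the others, the Aspn difference between the null and P3, 0.06, turned to -0.01 without null replicate 1 and to -0.12 without P3 replicate 3, in a range of -0.12 to 0.18 over all arrays left out in turn. Fmod, Omd and Ogn kept their lower call in the null against P5 in all 17 alternatives, Lum lost it in 1, Dcn in 4, Aspn in 9 and Bgn in 11. The Dcn call between the null and P3 was lost in 11 of 17 (adjusted p up to 0.21) and kept in 6 (down to 0.00563, with the filter). Prelp differed between P5 and P3 by 4.52 to 4.79 when any 1 array was left out, by 3.69 with a floor of 4 and by 2.70 as the mean of its probe-sets, and between the null and P5 by -3.69 and -2.87 under those last 2. Median centring moved the median of all genes by less than 0.01.

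Of the member probe-sets, 1 passed between the null and P3, which became 0 with the trended robust prior, the replicate block, only the 6 arrays compared and the study's thresholds, and 0 to 1 with an array left out. Between the null and P5 the 17 became 6 by the study's thresholds and 10 to 16 with an array left out. Between P5 and P3 the 17 became 11 with the trended robust prior, 11 with only the 6 arrays, 6 by the study's thresholds and 11 to 15 with an array left out. As above, nothing is read from that count, because this comparison led to the choice of Prelp. Apart from the study's thresholds, no share of all probe-sets was taken under these alternatives, so the counts have no background beside them.

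The genes of chain synthesis called between the null and P3, 3 in all, became 6 with the filter, 0 with the prior, 1 with the replicate block and 1 to 2 with an array left out, and the 8 between P5 and P3 became 13, 3, 4 and 3 to 10. Of the collagens and partners, 1 became 2, 0, 0 and 0 to 1 between the null and P3, and 10 became 17, 3, 5 and 5 to 14 between P5 and P3. Of the other proteoglycans, 3 became 6, 0, 0 and 1 to 3, and 4 became 8, 1, 2 and 1 to 7. With the prior, the 7 calls of these lists between the null and P3 had adjusted p between 0.0508 and 0.537, and between P5 and P3 those of Chpf2, Loxl4, Sdc2, Cd44 and Acan were lost with it (0.0559 to 0.145). With the replicate block, the Prg4 call between the null and P3 was lost (0.0891). The cause of these shifts was not tested.

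Arrays of the same replicate number did not deviate together throughout: the correlations of their deviations were 0.42, 0.21 and -0.51 between the null and P3, -0.22, 0.09 and -0.18 between the null and P5, and -0.07, 0.17 and 0.14 between P5 and P3, and 2, 0 and 4 of 6 arrays correlated best with their own number. The numbers were not taken as pairs, and the fit treats all arrays as independent. Whether P5 and P3 cultures of the same number came from the same embryos is not given, and these correlations cannot decide it. With the replicate block, 13 member probe-sets passed between the null and P5 and 12 between P5 and P3, again with no share of all probe-sets beside them.

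A member near 2.23 cannot show a decrease, which limits Prelp and Lum in the null, and Kera and Epyc in all groups. With 3 arrays a group, a difference that did not pass is bounded only by its interval. Probe-sets of 1 gene differ in size of response, as those of Prelp do, so no level is set against that of another gene.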

Other observations

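Genes of tendon and cartilage, tissues rich in SLRPs, moved in both directions between P5 and P3. All 5 tendon genes are given below, and of the cartilage genes those that passed, named after their values were seen. Of 5 tendon markers, Egr1, a transcription factor, read 11.91, 12.24 and 12.58 in the null, 13.38, 13.58 and 13.44 in P5 and 12.61, 12.80 and 12.37 in P3, and rose in P5 over P3 by 0.88 (SE 0.19, adjusted p = 0.0391). Mkx, a homeobox factor of tendon, rose by 0.69 (adjusted p = 0.008), while Scx, the early tendon factor, fell by 0.37 (adjusted p = 0.0296). Both had low signals, 5.16 in P5 and 4.47 in P3 for Mkx and 4.83 and 5.21 for Scx. The other 2 did not pass: Tnmd, with a mean of 9.97, had all P5 arrays below all P3 arrays, by 0.32 on average (adjusted p = 0.45), and Thbs4 was under 4 throughout. None of the 5 passed between the null and P3.

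Of 10 cartilage markers, 2 fell in P5 against P3, Acan and Col2a1, and none rose, where 7.11% of all genes fell and 6.13% rose. Col2a1, the main cartilage collagen, read 11.98, 11.55 and 11.44 in the null, 9.22, 9.33 and 9.80 in P5 and 10.65, 10.33 and 10.73 in P3. It was thus highest in the null and lowest in P5, with a P5 to P3 difference of -1.12 (SE 0.22, adjusted p = 0.0274), a null to P5 difference of 2.20 (adjusted p = 0.003) and a null to P3 difference of 1.08 (adjusted p = 0.0808). These lists were used to check the cells, and leaving out arrays was tried only for Acan, as given above.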
